A study of Homo sapiens with 6 samples.

Results

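The cytosolic ribosomal protein genes, which encode the protein subunits of the 80S ribosome of the cytosol, were followed across 6 RNA-seq libraries of U2OS cells. Members were the gene rows whose symbol begins with RPL or RPS followed by a digit, together with RPLP0, RPLP1, RPLP2 and RPSA. The S6 kinases (RPS6K), RPS4Y genes, RPS19BP1 and hyphenated read-through symbols were left out. This gave 85 of the 19940 gene rows, 32 of the small (40S) and 53 of the large (60S) subunit, and all 85 could be tested. Of these, 8 are paralogs (RPL3L, RPL7L1, RPL10L, RPL22L1, RPL26L1, RPL36AL, RPL39L and RPS27L). The RPS29 row also holds reads of the abundant 7SL RNA, so summaries over the family use the other 76 genes, 30 of the 40S and 46 of the 60S subunit.

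U2OS is a human osteosarcoma line, and every library came from U2OS cells stably expressing the decapping factor DCP1A fused to GFP. Isotonic libraries came from mock-treated cells kept 4 h in medium with 150 mM sodium. Hypertonic libraries came from cells kept 4 h in medium with 300 mM sodium, and rescue libraries from cells given that exposure and then 4 h of isotonic medium. There were 2 libraries a group, made from total RNA after ribosomal RNA depletion. The rescue cells were harvested 4 h later than the others after another change of medium, so recovery cannot be told apart from the later harvest. Nothing in the labels names separate cultures behind the libraries of a group, so p-values cover only the spread among these 6 libraries and that spread may be technical. Whether the GFP-DCP1A line is 1 clone is not given in the sources used here.

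Ribosomal proteins assemble with ribosomal RNA in the nucleolus in near-equal numbers per ribosome, and their mRNAs are among the most abundant in a growing cell. Most of these mRNAs start with a run of pyrimidines, the 5′ terminal oligopyrimidine (TOP) tract, through which LARP1 and mTORC1 signalling control their translation and stability. Ribosomal proteins left over from assembly are degraded, and RPL5 and RPL11 with 5S RNA can bind MDM2, the ligase that holds p53 low.

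Library totals ranged from 90196278 to 105991428 counts, so the precision of these abundant rows was set by the spread between libraries and not by counting. The numbering of the libraries did not match the group labels. Over the 13155 rows with a mean of at least 5 CPM (counts scaled by the library total), the log2 ratio of the library labelled hypertonic 2 to that labelled isotonic 1 had an SD of 0.0868. That of hypertonic 1 to isotonic 1 had an SD of 0.844. The library labelled hypertonic 1 was in turn close to isotonic 2, with an SD of 0.101, and the rescue libraries were close to each other, with an SD of 0.0982. Which of the 4 labels hold was not tested, so groups below are named by their labels and results are also given for each number alone. Of 8 mesenchymal markers 5 reached 5 CPM, with sums of 3499 to 3796 CPM per library. VIM alone averaged 1687 CPM, and COL1A2 was under 1 CPM. A mean of 5 CPM was also reached by 1 of 5 epithelial, 0 of 5 leukocyte and 2 of 4 endothelial markers. The highest of these were EPCAM at 6.66 CPM and PECAM1 at 13.8 CPM. Summed epithelial, leukocyte and endothelial markers stayed between 0.475 and 43.5 CPM, and their part in the results was not tested.

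The start of the transcript carries the letters by which most family members differ from other genes and by which several paralogs differ from their parents, so the 30 bases around the RefSeq start (15 before and 15 from it on) are shown for paralog pairs and for the members named in the comparisons below. RefSeq promoter entries (GRCh38.p14) were held for 68 of the 85 members. Capitals mark the longest run of C and T that touches the 5 bases on either side of the start, as far as it lies in the window.
RPS27: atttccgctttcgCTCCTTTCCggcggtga
RPS27L: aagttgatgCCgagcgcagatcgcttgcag
RPL22: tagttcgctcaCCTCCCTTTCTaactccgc
RPL22L1: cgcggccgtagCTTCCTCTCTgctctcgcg
RPL36A: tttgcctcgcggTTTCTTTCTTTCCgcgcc
RPL36AL: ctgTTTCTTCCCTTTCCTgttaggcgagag
RPL26: aagcagcgtgtagTTCTCTTCCCTTTTgcg
RPL26L1: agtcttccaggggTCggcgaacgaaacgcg
RPL10: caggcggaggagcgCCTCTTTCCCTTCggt
RPL10L: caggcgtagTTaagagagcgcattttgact
RPL7L1: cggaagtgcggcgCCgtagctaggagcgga
RPL34: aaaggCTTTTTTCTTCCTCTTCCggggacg
RPL37A: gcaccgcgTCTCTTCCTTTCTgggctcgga
RPS24: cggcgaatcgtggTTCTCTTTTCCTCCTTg
The plus-strand windows lie at chr1:153990747-153990776 (RPS27), chrX:101390996-101391025 (RPL36A), chr5:172958714-172958743 (RPL26L1), chrX:154398362-154398391 (RPL10), chr6:42879601-42879630 (RPL7L1), chr4:108620561-108620590 (RPL34), chr2:216498829-216498858 (RPL37A) and chr10:78033848-78033877 (RPS24). Those on the minus strand lie at chr15:63157463-63157492 (RPS27L), chr1:6199581-6199610 (RPL22), chr3:170870181-170870210 (RPL22L1), chr14:49620612-49620641 (RPL36AL), chr17:8383179-8383208 (RPL26) and chr14:46651767-46651796 (RPL10L).

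A run of at least 8 pyrimidines at the start was found in 51 of the 68 members (75%), against 2258 of 14870 gene rows with an entry (15.2%). Where a gene had several annotated starts, its longest run was counted, which applied to 11 members. The median run was 11 bases in the members and 4 in all rows. Runs could begin before the annotated start, at position -12 in RPL36AL, -10 in RPL34 and -4 in RPL22L1. Bases before the start are not part of the annotated transcript. Among paralogs, 2 of 6 had such a run, RPL22L1 with 10 bases and RPL36AL with 15, and RPS27L, RPL26L1, RPL10L and RPL7L1 had runs of 2 bases where RPS27, RPL26 and RPL10 had 9, 14 and 13. In the 250 bases before the start, on either strand, CCGGAAG, a core recognised by ETS-family factors, occurred in 23 of 68 members (33.8%) and 14.2% of all rows. The GC box GGGCGG occurred in 40 members (58.8%) against 63.2%, and TATAAA in 7 members (10.3%) against 11.6%. None of these 3 motifs contains another. A match describes the letters of the annotated start and is not a measured start or site.

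**Figure D1:**
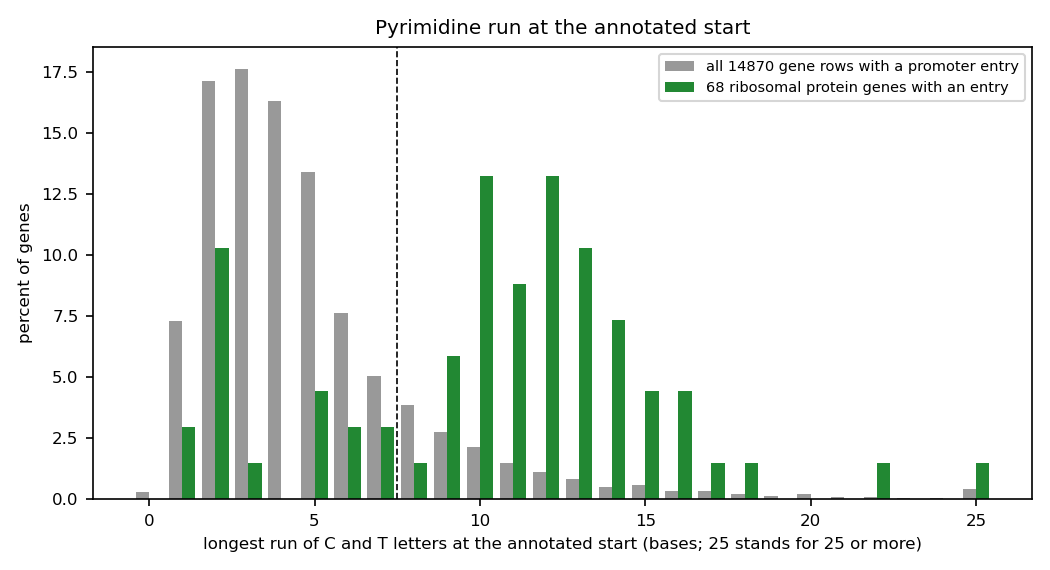
Bars give the percent of genes (y axis) by the length in bases of the longest C and T run at the annotated start (x axis), for all 14870 gene rows with a promoter entry (grey) and the 68 ribosomal protein genes with one (green). The dashed line separates runs of 8 or more, which 75% of the ribosomal protein genes and 15.2% of all rows have.

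The family was abundant. Per kilobase of annotated exon, mean levels of the 76 genes ran from 34.3 CPM (RPS15A) to 457 CPM (RPS12), with a median of 102, against a median of 7.49 over all rows. Not scaled by length, RPS2, a 40S protein near the mRNA entry, had the highest mean of the 40S genes at 1090 CPM, followed by RPS24, RPSA, RPS3 and RPS4X. Of the 60S genes, RPL4, which lines the peptide exit tunnel, led with 1089 CPM, followed by RPLP0, RPL8, RPL3 and RPL13A. The family was also steady across the 6 libraries. The highest library exceeded the lowest by a median of 1.21-fold over the 76 genes and by at most 1.57-fold (RPS27), against a median of 1.82-fold over the 13155 rows. None of the 76 genes differed by at least 2-fold between its highest and lowest library, against 41.7% of those rows.

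Summed over the 76 genes, the libraries labelled isotonic 1 and 2 held 25905 and 27552 CPM. The sums were 27803 and 25630 CPM in hypertonic 1 and 2, and 31155 and 29473 CPM in rescue 1 and 2. The isotonic and hypertonic libraries overlapped and both rescue libraries lay above them. In single genes, both rescue libraries lay above the other 4 in 27 of 30 genes of the 40S and 31 of 46 of the 60S subunit, against 39.4% of all rows with a mean of at least 5 CPM. They lay below the other 4 in none of the 40S and 1 of the 60S genes, against 28.6%. CPM is a share of the library, so that order rests on what the other RNAs did. Under trimmed mean of M-values (TMM) scaling, which centres the bulk of genes, it did not hold. Of the 76 genes the rescue libraries were above the other 4 in 0 and below in 30. All rows on that scale had 25.6% above and 43.9% below, so the lower count lay near the share of all rows. The TMM-scaled sums were 26267 and 31041 in isotonic, 31417 and 26148 in hypertonic, and 27275 and 25562 in rescue, so the groups overlapped. A share of RNA in bulk cells cannot tell less RNA per cell from fewer cells.

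**Figure D2:**
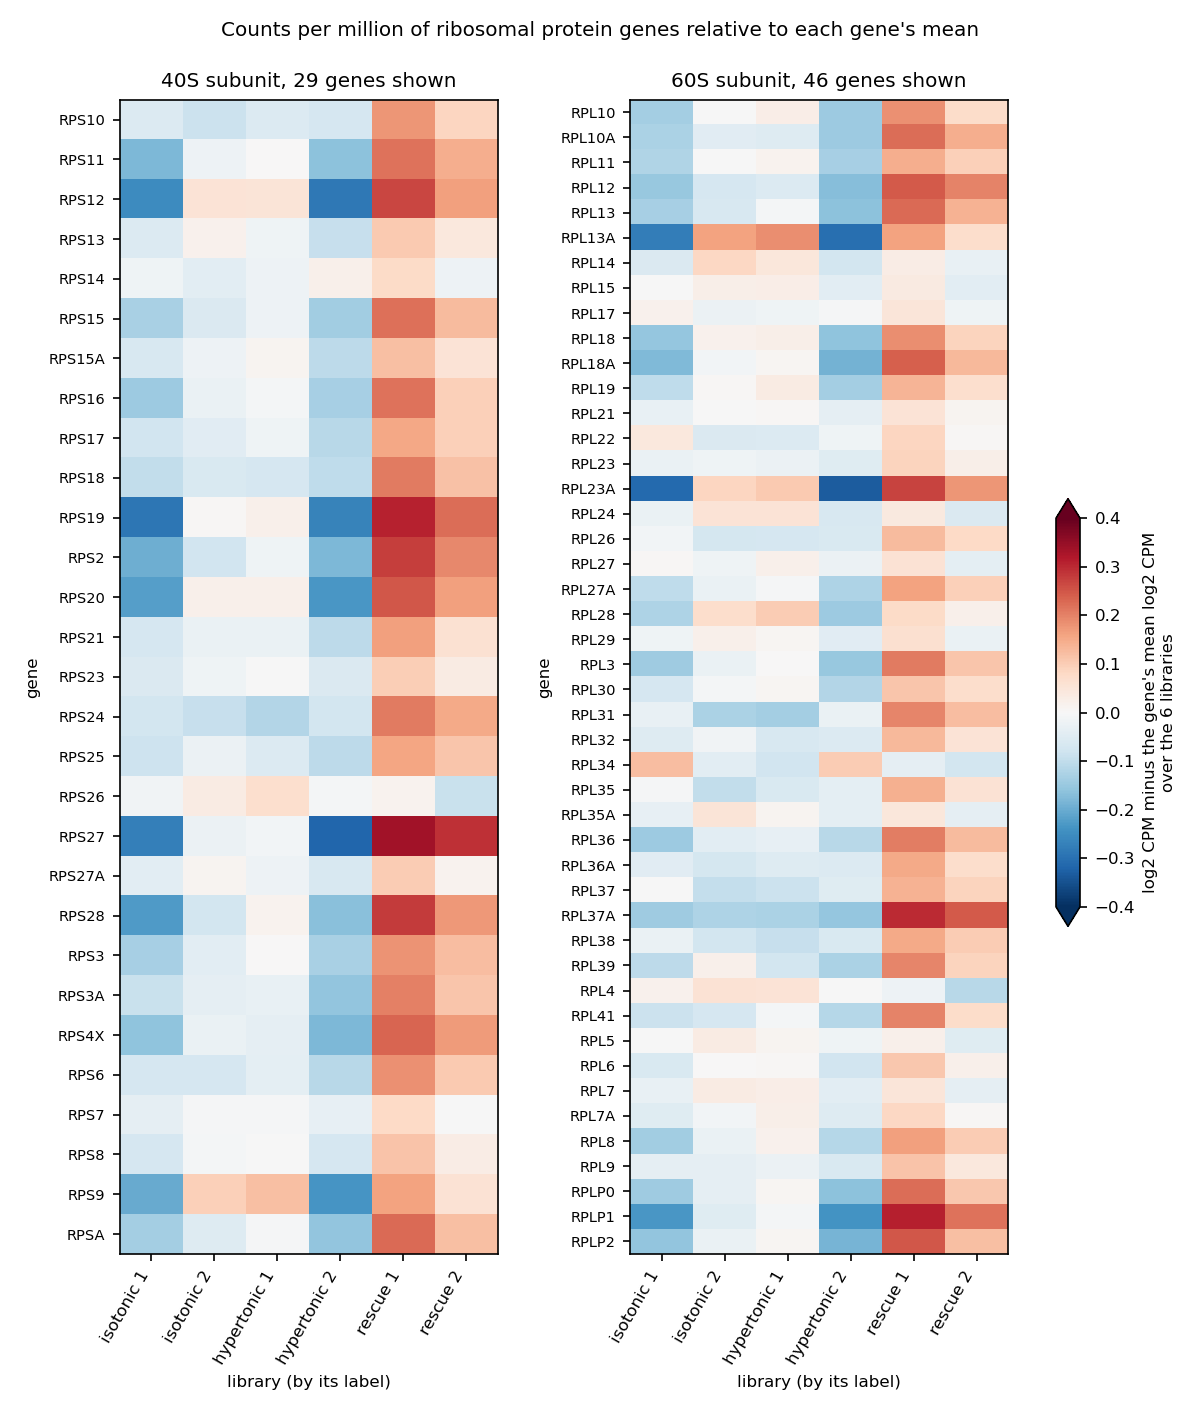
Each cell gives log2 CPM of a gene (rows; 40S genes at left, of which 1 is not shown, and the 46 of the 60S at right) in a library (columns, by label) minus the mean of that gene's log2 CPM over the 6 libraries. The rescue columns are mostly red, while isotonic 1 resembles hypertonic 2 and isotonic 2 resembles hypertonic 1.

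No member passed the test between the libraries labelled hypertonic and isotonic. In edgeR's quasi-likelihood test 0 of 85 members passed an adjusted p of 0.05 in either direction (0% of the 18208 rows tested were higher and 0% lower), and 0 of 85 members had an unadjusted p below 0.05, against 52 rows in all. DESeq2 and limma voom called no member either. The median log2 fold change of the members was 0.005, with a range of -0.24 to 0.22. A block on the crossed pairs, a model chosen with results of these data known, called 1 member higher, the RPS29 row (log2 fold change 0.22), and 0 lower (0.0346% and 0.0866% of 17329 rows). The label test had little room, since the 2 libraries of each of these labels differed more from each other than from a library of the other label.

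Taken by number, the 2 comparisons went opposite ways. In CPM, hypertonic 1 exceeded isotonic 1 by a median log2 ratio of 0.07 over the 76 genes, being above it in 64 and below in 12, where all rows with a mean of at least 5 CPM had a median of -0.20. Hypertonic 2 against isotonic 2 gave a median of -0.08, above in 12 and below in 64, where all rows had 0.20. The crossed ratios were near 0 in the 76 genes, with a median of -0.02 (SD 0.022) for hypertonic 2 over isotonic 1 and 0.01 (SD 0.028) for hypertonic 1 over isotonic 2. In 61 of the 76 genes isotonic 1 and hypertonic 2 both lay below isotonic 2 and hypertonic 1 (31.9% of all rows), and in 10 both lay above (60.9%).

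Fitted with 1 library a label and the spread taken from the rescue pair, which assumes that the lone libraries vary like those, 56 of 85 members were called higher in hypertonic 1 than in isotonic 1, and 2 were called lower (31.6% of rows were higher and 32.6% lower). In the number 2 libraries 3 members were higher and 53 lower (32.9% and 31% of rows). These counts rested on the scaling. With library totals, the number 1 fit called 15 members higher and 5 lower (24.1% and 41.3% of rows) and the number 2 fit 4 higher and 12 lower (40.9% and 24.4%).

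Among members averaging 5 CPM or more, RPS29 left out, the largest CPM ratios of hypertonic 1 to isotonic 1 were led by RPL13A, RPL23A, RPS9, RPS19 and RPS12. RPL13A, a 60S protein also known from translational silencing in the interferon response, stood at 472.5 and 640.8 CPM in the isotonic, 651.3 and 464.7 CPM in the hypertonic and 640.7 and 601.5 CPM in the rescue libraries. Its levels fell into a low pair, isotonic 1 and hypertonic 2, and 4 higher libraries, so the groups overlapped. RPL23A, which lies beside the exit of the peptide tunnel, had 451.8 and 594.7, 602.5 and 444.8, and 675.8 and 633.0 CPM in the same order, and its rescue libraries were the highest. RPS19, the 40S protein most often mutated in Diamond-Blackfan anaemia, had 330.4 and 405.2, 409.3 and 335.3, and 499.9 and 471.1 CPM. RPS12 had 291.2 and 360.4, 359.5 and 284.4, and 417.3 and 388.7 CPM. In RPS19 and RPS12 too the rescue libraries lay above the rest and the other 4 split by crossed pairs. The smallest ratios were those of RPL7L1, RPL39L, RPL26L1, RPS27L, RPL34 and RPL36AL, of which 5 are paralogs.

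In the rescue libraries, 2 of 85 ribosomal protein genes passed the test by label. The spread of that test takes in the crossed isotonic and hypertonic libraries, so few calls do not show that the members stayed level. Fits over single libraries are given below. Against isotonic, 0 members were higher and 2 were lower (9.61% and 13.5% of 18208 rows), with a median log2 fold change of -0.12, where all rows tested had -0.02. Against hypertonic, the same members passed, 0 higher and 2 lower (9.86% and 13.8% of rows), again with a median of -0.12 against -0.02. The rescue libraries serve in both comparisons, so these counts are not independent. The 40S genes with RPS29 had a median of -0.06 and the 60S genes of -0.15 against isotonic.

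RPL36AL, a copy of RPL36A on chromosome 14 (GRCh38 chr14:49618519-49620685, minus strand), had 90.3 and 83.3 CPM in the isotonic, 82.4 and 90.4 CPM in the hypertonic and 75.3 and 71.2 CPM in the rescue libraries. Both rescue libraries were the lowest of the 6 on this scale. It fell in rescue by 0.54 on the log2 scale against isotonic (SE 0.099, edgeR adjusted p = 0.0256) and by the same amount against hypertonic (adjusted p = 0.0251). RPL34, a 60S protein (chr4:108620566-108630412, plus strand), had 206.1 and 183.7, 179.4 and 202.9, and 184.6 and 179.8 CPM, so its groups overlapped in CPM. On the TMM scale it had 209 and 207, 203 and 207, and 162 and 156, and both rescue libraries were the lowest. It fell by 0.39 against isotonic (SE 0.089, edgeR adjusted p = 0.041) and by 0.37 against hypertonic (adjusted p = 0.0465).

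Both calls depended on the scaling. With library totals RPL36AL stood at -0.25 (edgeR adjusted p = 0.204) and RPL34 at -0.10 (adjusted p = 0.567) against isotonic. Leaving out 1 library of the compared groups left no row of the whole table past the threshold (smallest adjusted p in edgeR 0.0508 to 0.169), so those fits say nothing about the members. Leaving out either hypertonic library still called 8.31% or 8.34% of rows higher and 10.4% lower in rescue against isotonic, and there RPL36AL had an adjusted p of 0.0537 and 0.0526 and RPL34 of 0.0755 and 0.0805. The fold changes kept their direction. With 1 library of the other label at a time, RPL36AL stood between -0.52 and -0.56 and RPL34 between -0.36 and -0.40.

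Under library totals the members' median against isotonic was 0.18, where all rows stood at 0.27, so the direction of the median turned. A change of scaling moves all rows nearly alike, so it cannot test the members' place among them. Against rows with a mean of at least 5 CPM, that place differed by library. The 76 genes' median minus that of the rows was 0.21 for rescue 1 over isotonic 1 and -0.07 for rescue 2 over isotonic 2. Over hypertonic 1 and 2 it was -0.01 and 0.16. The fit with library totals called 2 members higher and 0 lower against isotonic (11.3% and 6.02% of rows), and 2 higher and 0 lower against hypertonic (11.6% and 6.03%). They were RPL37A, a zinc-binding 60S protein, and RPS24. RPL37A had 435.2 and 441.5, 440.6 and 432.2, and 591.2 and 570.3 CPM in the isotonic, hypertonic and rescue libraries, and both rescue libraries stood well above the other 4. Its log2 fold change against isotonic was 0.41 with library totals (SE 0.061, edgeR adjusted p = 0.0221) and 0.11 with TMM (adjusted p = 0.547). RPS24 had 624.6 and 616.4, 605.6 and 625.4, and 759.0 and 730.5 CPM, with a log2 fold change of 0.26 with library totals (SE 0.059, edgeR adjusted p = 0.0488) and -0.03 with TMM (adjusted p = 0.841).

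By number, the fit of the rescue libraries over isotonic 1 called 13 members higher and 18 lower (40.5% and 38.6% of rows), and over isotonic 2 it called 2 higher and 62 lower (40.7% and 40.1%). Over hypertonic 1 it called 2 higher and 69 lower (41% and 40.5%), and over hypertonic 2 13 higher and 19 lower (40.5% and 38.6%). The pair isotonic 2 and hypertonic 1 thus gave many lower members under TMM, and the pair isotonic 1 and hypertonic 2 few.

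**Figure D3:**
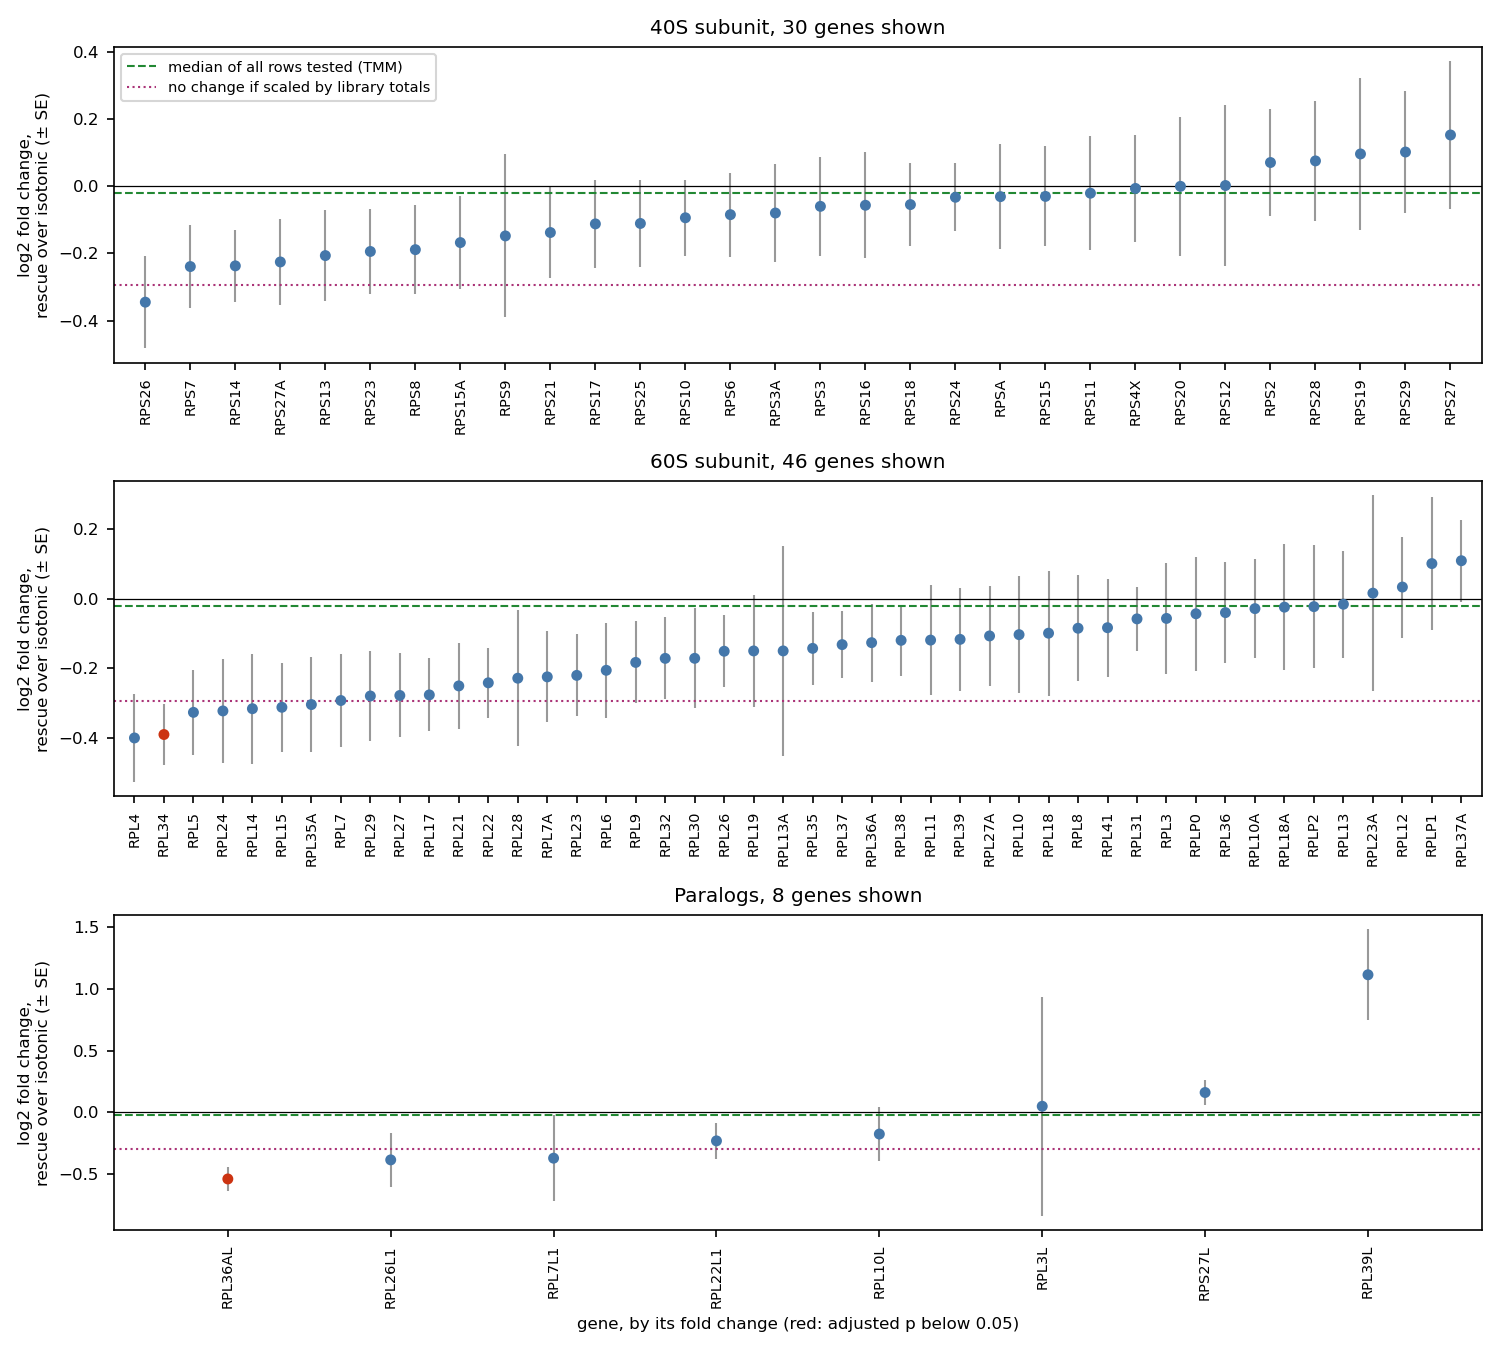
Points give the log2 fold change of rescue over isotonic in the TMM fit (y axis) with its SE (bars) for each member but 1 of the 40S (x axis, ordered by fold change) in 3 panels. RPL34 and RPL36AL are the 2 red points past an adjusted p of 0.05, and the dotted line shows where no change lies under library totals.

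The balance between the subunits did not rest on the scaling. Summed 40S CPM came to 62.7% and 63.5% of summed 60S CPM in the isotonic, 63.7% and 63.0% in the hypertonic and 67.4% and 67.3% in the rescue libraries. The 4 isotonic and hypertonic libraries overlapped and both rescue libraries lay above them. The difference is given without a p, since an exact permutation test of 2 libraries against 2 cannot give a two-sided p below 0.333. Without RPS2 and RPL4, the most abundant gene of each subunit, the ratio was 61.0% to 61.6% in the 4 libraries and 64.0% in both rescue libraries. Without the 5 most abundant of each it was 55.9% to 57.7% against 59.5% and 59.2%. Over the 42 genes that overlap no other row it was 79.3% to 80.5% against 84.1% and 83.9%. These sets of genes were chosen after seeing the data.

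**Figure D4:**
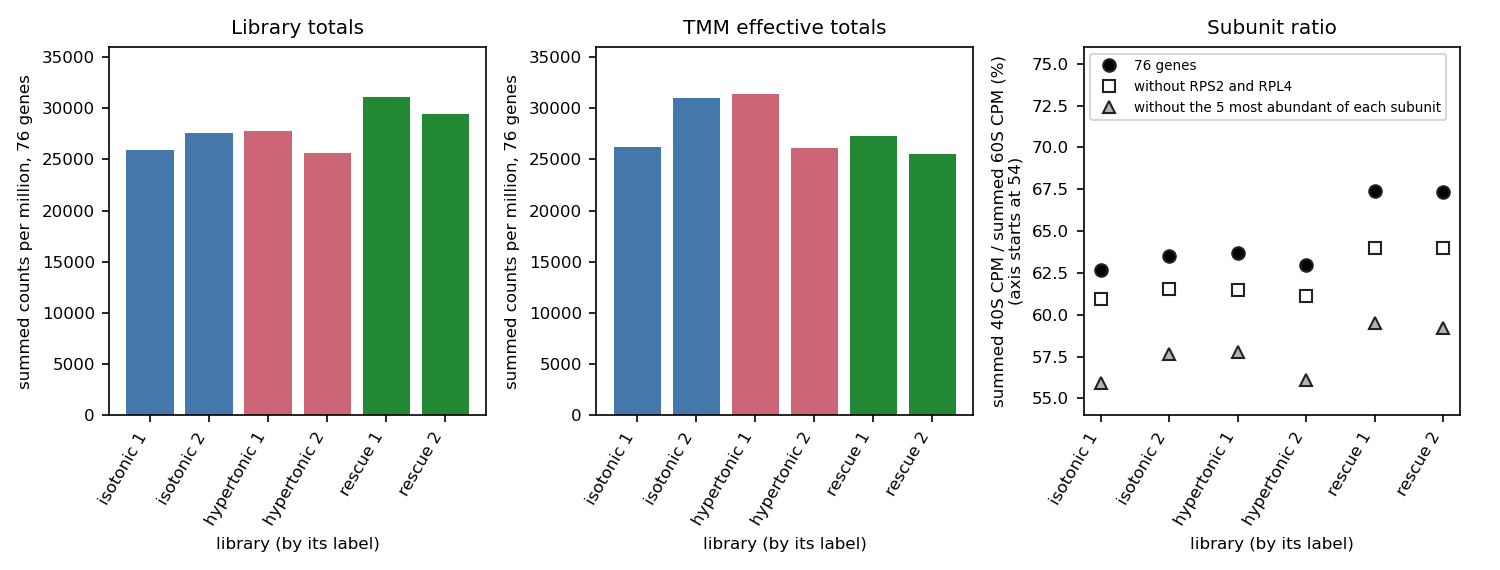
Bars give the summed CPM of the 76 genes per library (x axis, by label) under library totals (left) and TMM effective totals (middle), and points (right) give summed 40S as a percent of summed 60S CPM for 3 sets of genes. Rescue sums are the highest at left and not in the middle, while the ratio is highest in rescue for each set.

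As a share of the 76-gene total, both rescue libraries lay above the other 4 in 25 genes, 15 of the 40S and 10 of the 60S, where 27.9% of all rows set against the same total did so. They lay below in 27 genes, 8 of the 40S and 19 of the 60S, against 36.3% of rows. The genes named here were chosen after their values were seen. RPS27 had 0.811% and 0.908% of the total in the isotonic, 0.907% and 0.796% in the hypertonic and 1.03% and 1.05% in the rescue libraries. Its mean share in rescue over that in the other 4 libraries, 1.22, was the highest such ratio of the 76. RPL4 had 4.25% and 4.11%, 4.07% and 4.24%, and 3.44% and 3.42%, with the lowest ratio, 0.824. Both genes kept their rescue libraries apart from the other 4. RPL4 had a log2 fold change of -0.40 against isotonic in the TMM fit (SE 0.127, edgeR adjusted p = 0.0892), and its span overlaps ZWILCH, whose reads cannot be told apart where the counting's use of strand is unknown.

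The paralogs were less steady than the rest of the family. Their highest library exceeded the lowest by a median of 1.48-fold, below the 1.82-fold of the 13155 rows with at least 5 CPM. Of the 8, 2 differed by at least 2-fold, RPL39L and RPL3L, where 41.7% of those rows did. RPL3L averaged only 1.96 CPM. RPL39L, a copy of RPL39 known for its role in the testis (chr3:187120948-187180908, minus strand), had 22.9 and 12.7 CPM in the isotonic, 12.7 and 23.8 CPM in the hypertonic and 46.3 and 47.0 CPM in the rescue libraries. Both rescue libraries were well above the other 4, which fell into crossed pairs. Its log2 fold change against isotonic was 1.11 (SE 0.37, edgeR adjusted p = 0.0998) and against hypertonic 1.07 (adjusted p = 0.107), so it did not pass, while DESeq2 gave an adjusted p of 0.0169 against isotonic. Over single isotonic libraries it was 0.80 (number 1) and 1.51 (number 2). Its parent RPL39 had 139.4 and 152.1, 142.5 and 137.2, and 171.5 and 159.4 CPM, with a log2 fold change of -0.12 (edgeR adjusted p = 0.609).

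RPL7L1, a pre-ribosomal factor related to RPL7 (chr6:42879618-42889925, plus strand), had 150.2 and 83.8, 79.0 and 146.2, and 109.6 and 109.3 CPM in the isotonic, hypertonic and rescue libraries. Rescue lay between the crossed pairs, so the groups overlapped. RPL7 had 479.7 and 500.0, 498.2 and 474.7, and 506.3 and 477.4 CPM, a narrow split by the same pairs in the opposite direction, and its row may take reads of 61 named pseudogenes. Between number 1 libraries RPL7L1 had a log2 fold change of -0.77 in the fit with spread from rescue (edgeR adjusted p = 1.78e-19) and of 0.66 between number 2 libraries (adjusted p = 1.17e-14).

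RPS27L, a copy of RPS27 and a known p53 target (chr15:63125872-63158021, minus strand), had 143.9 and 119.6, 120.4 and 144.2, and 182.2 and 177.8 CPM. Both rescue libraries were the highest, as were those of RPS27 with 210.1 and 250.2, 252.1 and 203.9, and 320.5 and 310.9 CPM. The crossed pairs moved in opposite ways in parent and copy: isotonic 1 and hypertonic 2 were the higher pair for RPS27L and the lower for RPS27. The log2 fold change against isotonic was 0.16 for RPS27L (SE 0.103, edgeR adjusted p = 0.321) and 0.15 for RPS27 (adjusted p = 0.655), and neither passed. The span of RPS27L overlaps LACTB.

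RPL36A, the parent of RPL36AL, had 202.6 and 199.3, 201.8 and 201.5, and 232.4 and 219.6 CPM. Its rescue libraries were the highest on the CPM scale where those of RPL36AL were the lowest, and its log2 fold change in the TMM fit was -0.13 (edgeR adjusted p = 0.463). RPL22L1, a copy of RPL22, had 62.8 and 67.7, 66.0 and 64.7, and 70.1 and 66.8 CPM, and RPL22 had 172.4 and 160.6, 161.0 and 165.2, and 177.4 and 167.9 CPM. The groups overlapped in both genes.

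RPL26L1 was low, with 8.06 and 5.85, 6.51 and 8.40, and 6.77 and 6.21 CPM, and RPL10L, an intronless copy of RPL10, with 7.84 and 9.20, 8.39 and 7.97, and 9.26 and 9.35 CPM. RPL3L, the form of RPL3 known from heart and skeletal muscle, had 0.674 and 3.04, 2.21 and 0.966, and 2.36 and 2.51 CPM, of which the lowest rested on 71 counts (95% Wilson interval 0.534 to 0.850 CPM, counting error only). It was lowest in isotonic 1 and hypertonic 2. None of these 3 passed the test, with log2 fold changes against isotonic of -0.38, -0.17 and 0.05.

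**Figure D5:**
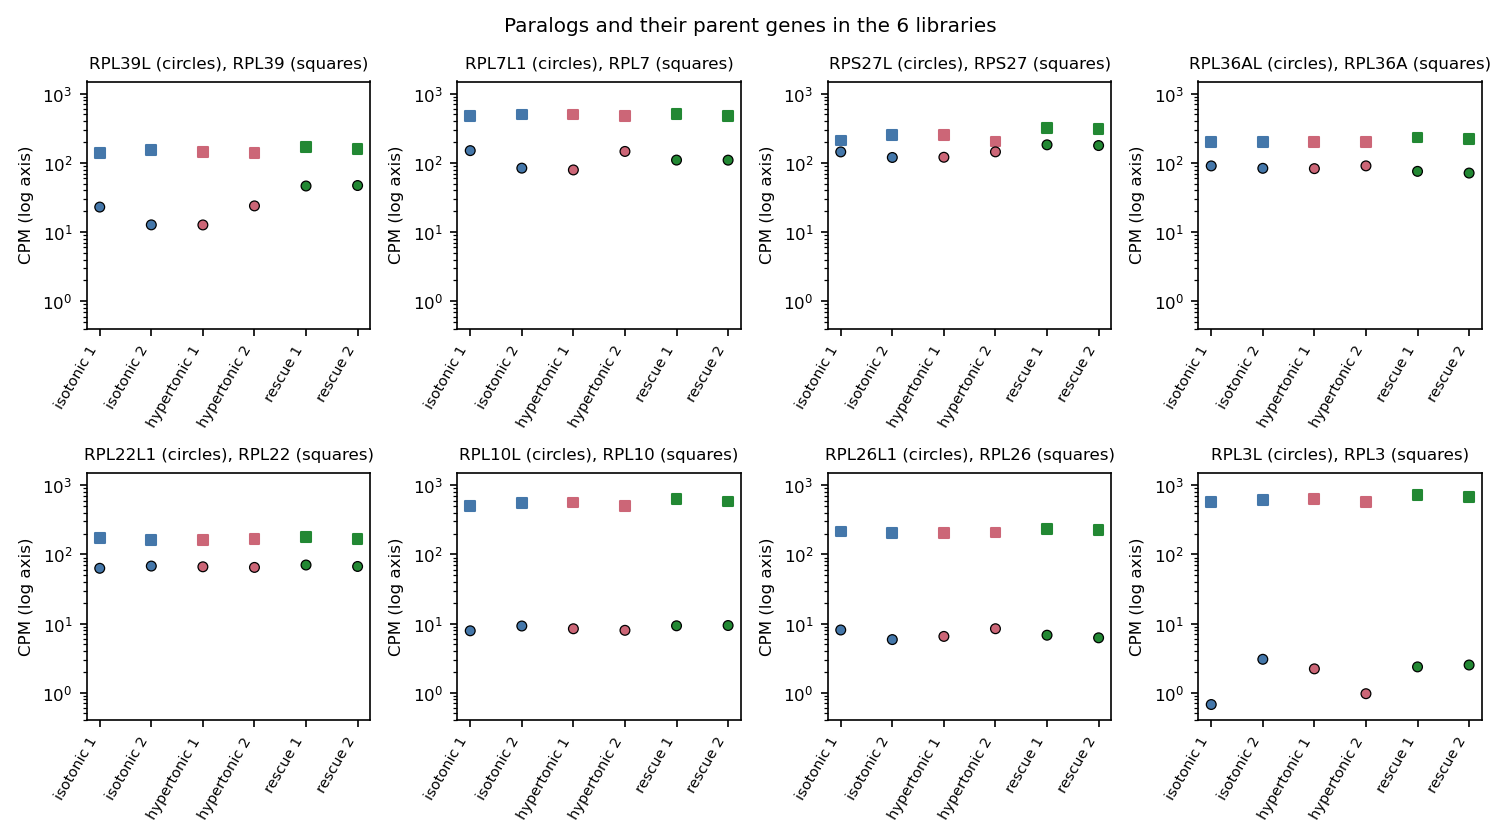
Each panel shows CPM on a log axis (y) in the 6 libraries (x, by label) for a paralog (circles) and its parent (squares). RPL39L is highest in both rescue libraries at 46.3 and 47.0 CPM, RPL7L1 splits by crossed pairs, and RPS27 is the parent with the widest range, 203.9 to 320.5 CPM.

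The members that bind 5S RNA and MDM2 did not pass the test in rescue. RPL5 had 479.9 and 491.6, 484.3 and 475.0, and 487.5 and 464.9 CPM, and its span overlaps FAM69A. RPL11 had 315.3 and 341.8, 345.8 and 312.4, and 378.6 and 366.3 CPM. The groups overlapped for RPL5, and the rescue libraries were highest for RPL11. Their log2 fold changes against isotonic in the TMM fit were -0.33 (SE 0.121, edgeR adjusted p = 0.123) for RPL5 and -0.12 (SE 0.157, adjusted p = 0.625) for RPL11.

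The genes of the stalk proteins, which recruit translation factors to the 60S subunit, followed the order of most of the family in CPM. RPLP0, the stalk base, had 829.9 and 892.0, 921.1 and 816.7, and 1069 and 987.0 CPM. RPLP1 had 433.3 and 492.7, 506.1 and 431.1, and 631.6 and 592.0 CPM, and RPLP2 had 116.6 and 127.8, 130.9 and 114.4, and 154.6 and 141.5 CPM. For all 3 genes the rescue libraries were the highest and isotonic 1 and hypertonic 2 the lowest. Rescue was likewise above the other 4 in 31 of 46 genes of the 60S (39.4% of all rows). The low pair was the same in 61 of the 76 genes (31.9% of all rows), so the order is not particular to the stalk. In the TMM fit none passed, with log2 fold changes of -0.04, 0.10 and -0.02 against isotonic.

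In the 40S subunit, RPSA, which is related to a laminin receptor, had 532.7 and 564.7, 583.9 and 524.6, and 684.9 and 636.3 CPM. RPS3, at the mRNA entry, had 504.4 and 537.2, 553.1 and 505.5, and 626.3 and 603.1 CPM. RPS6, the substrate of S6 kinase, had 395.9 and 396.1, 403.5 and 384.3, and 471.4 and 445.9 CPM. These 3 were highest in both rescue libraries, and their log2 fold changes in the TMM fit lay between -0.09 and -0.03 against isotonic with adjusted p of 0.663 to 0.906.

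RPS26, at the mRNA exit, did not share that order. It had 156.2 and 161.5, 165.3 and 156.8, and 159.2 and 148.2 CPM, with groups that overlapped, and its log2 fold change against isotonic was -0.35 (SE 0.137, edgeR adjusted p = 0.142). RPS27A, made as a fusion with ubiquitin, had 423.6 and 439.3, 430.2 and 416.8, and 467.6 and 439.9 CPM, with -0.22 (adjusted p = 0.272).

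The RPS29 row held 14841 and 17172 CPM in the isotonic, 19812 and 17278 CPM in the hypertonic and 21623 and 20736 CPM in the rescue libraries, more than any other member by over 10-fold. RN7SL1, a 7SL RNA gene of the opposite strand (chr14:49586580-49586878, plus strand), lies inside the RPS29 span (chr14:49570984-49599164, minus strand). Its reads cannot be told from those of RPS29 here. The row's log2 fold change in the TMM fit was 0.10 against isotonic (edgeR adjusted p = 0.721) and -0.12 against hypertonic (adjusted p = 0.68).

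Lists of genes that act on the family were set beside it in rescue against isotonic, where 9.61% of all rows were higher and 13.5% lower. No difference between lists was tested. The lists were chosen with results of these libraries known, so their direction is not independent evidence. Of 54 ribosome biogenesis factors, 0 were higher and 30 lower in rescue than in isotonic, with a median log2 fold change of -0.84 where all rows had -0.02 and the 85 members -0.12. With library totals 20 were lower. NOC3L, a factor of 60S assembly, had 54.2 and 38.8, 35.7 and 53.5, and 18.9 and 18.9 CPM, and both rescue libraries lay below the rest. It was lower by 2.99-fold (edgeR adjusted p = 0.0151), NOP16 by 2.91-fold and PWP2, a subunit of the small-subunit processome, by 2.84-fold. Of 10 chaperones dedicated to single ribosomal proteins, 5 were lower and 0 higher, among them GRWD1, which binds RPL3, at 2.15-fold, and TSR2, which carries RPS26, at 1.88-fold.

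Of 27 genes of RNA polymerase I and rRNA transcription, which make the ribosomal RNA partner of these proteins, 8 were lower and 0 higher. POLR1E fell most, from 117 and 103 CPM in isotonic and 98.5 and 116 CPM in hypertonic to 41.0 and 39.8 CPM in rescue (3.33-fold, edgeR adjusted p = 0.00834). Of 20 other TOP mRNAs of the translation machinery, 7 were lower and 0 higher, with a median of -0.39. They included EIF3E and EIF3A, subunits of the initiation factor eIF3, at 2.17-fold and 2.13-fold. EEF1A1, with a log2 fold change of -0.16 (edgeR adjusted p = 0.58), and TPT1, with -0.12 (adjusted p = 0.787), stayed with the ribosomal protein genes. LARP1, which binds the TOP tract, had 394 and 361, 360 and 392, and 231 and 236 CPM, and both rescue libraries lay below the rest, lower by 1.98-fold (edgeR adjusted p = 0.00891). In the list of mTORC1 and TOP control genes, 1 of 23 was higher and 3 were lower, near the share of all rows. Their median log2 fold change was -0.55, where all rows had -0.02, and its size varied with the isotonic library. Over single isotonic libraries it was -0.28 (number 1) and -0.64 (number 2). With library totals it was -0.25, where all rows had 0.27.

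Of 9 partners of the 5S particle and MDM2, 2 were higher and 3 lower. MDM2 had 178 and 173 CPM in isotonic, 174 and 179 CPM in hypertonic and 873 and 906 CPM in rescue (4.12-fold higher, edgeR adjusted p = 0.00834), while RPL5 and RPL11 did not pass. RPF2, which loads the 5S particle, was lower by 2.73-fold (adjusted p = 0.0257). Of 17 ribosome quality control genes, 8 were lower and 0 higher, and of 9 transcription factors of ribosomal protein promoters 1 was lower, MAZ, at 1.76-fold. With library totals, the counts of lower genes were 4 for RNA polymerase I, 5 for the TOP mRNAs, 2 for the chaperones and 2 for quality control, where 1 was higher. Leaving out either isotonic library left 0 calls in these lists and in the whole table, while the biogenesis median stood at -0.92 and -0.80 and that of the chaperones at -0.78 and -0.64. Over single isotonic libraries the biogenesis median was -0.80 (number 1) and -0.92 (number 2), where all rows had 0.04 and 0.02. Between hypertonic and isotonic by label none of the genes of these lists passed. By number, the median log2 fold change of the TOP mRNAs was 0.30 for number 1 and -0.28 for number 2. For RNA polymerase I these medians were -0.17 and 0.25, and for the biogenesis factors 0.03 and -0.11. All rows stood near 0 in both fits.

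The genes also shared features of their loci. A snoRNA gene lay inside the span, on the same strand, of 28 of 85 members (32.9%), against 273 of 19874 located rows (1.37%). The 28 hosts had a median log2 fold change of -0.10 in rescue against isotonic and the 48 other genes of the 76 -0.12. An overlapping gene row was present for 36 members and named pseudogenes for 77, 1145 in all, so their counts may include reads of other loci. The 34 of the 76 genes with an overlapping row had a median of -0.15 and the 42 without one of -0.08. Of the 61 genes of the 76 with a promoter entry, the 49 with a run of at least 8 pyrimidines had a median of -0.12 and the 12 with a shorter run of -0.13. In CPM, hypertonic 1 over isotonic 1 gave medians of 0.07 and 0.06 in these run classes. For snoRNA hosts and the other genes the medians were 0.10 and 0.06, and with and without an overlapping row 0.05 and 0.10. Hypertonic 2 over isotonic 2 gave -0.10 and -0.08, then -0.08 and -0.10. RPL13A and RPL23A, which led the first ratio, each hold 4 snoRNA genes, and the part of these in the ratio was not tested.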

How the data were processed

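Total RNA of 6 libraries was sequenced after ribosomal RNA depletion, per the labels' protocols. The authors deposited whole-number read counts per gene symbol, 1 table a library. bcl2fastq, TopHat2, Bowtie2 and bedtools with GRCh38/hg38 are named in the submitters' processing notes; versions, the annotation, the handling of reads that map to several places and the use of strand were not given in the sources used here. All 19940 rows were used, and CPM was computed with library totals of 90196278 to 105991428 counts.

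Counts of all 6 libraries were fitted together in edgeR 4.0.16 (R 4.3.3) with TMM scaling, the filter of filterByExpr (18208 rows kept) and the quasi-likelihood test, with Benjamini-Hochberg adjustment over all rows and no replicate term. The biological coefficient of variation was 38.4% and 3 residual degrees of freedom remained. Alternatives were library totals, DESeq2 size factors, upper quartile, totals without the rows RPS29, PTPRD and ANKRD28, DESeq2 1.42.0, limma 3.58.1 (voom), no filter, a replicate block, each library left out, and 1 library a label with the spread from rescue. The scripts were tested on simulated counts. Intervals and floors cover counting error only.

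The members, the gene lists and the rules were chosen with earlier results of these data known. Named genes were the paralogs and their parents, 13 members of known role, members past the threshold in rescue, the 6 largest and 6 smallest hypertonic 1 to isotonic 1 ratios (mean of 5 CPM or more), and up to 3 called genes per list by size. Gene spans came from GENCODE 29 and sequences from RefSeq (GRCh38.p14). Of what these rules name, 1 member and 1 list are not reported here.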

Additional observations from a re-analysis of the deposited data

How the results depend on the processing

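The median log2 fold change of the members between hypertonic and isotonic, 0.005, became 0.23 with the number 1 and -0.22 with the number 2 libraries alone under TMM, and 0.07 and -0.08 with library totals. It lay between -0.12 and 0.11 with 1 library left out. With 1 library a label and the spread from rescue, members called higher and lower between hypertonic and isotonic were 56 and 2 (number 1) and 3 and 53 (number 2) under TMM, 57 and 2 and 3 and 56 with DESeq2 size factors, 49 and 2 and 3 and 45 with upper quartile, 15 and 5 and 4 and 12 with library totals, and 17 and 5 and 4 and 12 with totals without the rows RPS29, PTPRD and ANKRD28; all but the TMM fits of this kind were chosen after seeing the data. A block on the crossed pairs called 1 higher, RPS29. The cause of these shifts was not tested.

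Against isotonic, the rescue median of -0.12 became 0.18 with library totals, 0.0948 with upper quartile and 0.19 with totals without those 3 rows, and against hypertonic 0.19, 0.0917 and 0.19. Members called higher against isotonic were 2, 2 and 1 with library totals, totals without those rows and DESeq2, and the same numbers against hypertonic. By number they were 13 and 2 against isotonic and 2 and 13 against hypertonic. Members called lower became 0 with library totals, upper quartile and totals without those rows in both comparisons, and 1 against hypertonic with DESeq2 size factors or no filter. By number they were 18 and 62 against isotonic and 69 and 19 against hypertonic. Leaving out any 1 library gave 0 lower members in each rescue comparison, but in 8 of these 12 fits no row of the table was called.

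With the replicate number as a block, 0 members were called lower in either rescue comparison, and 0 rows of the whole table were called in them. Library numbers did not pair the samples: deviations of same-numbered libraries correlated at -0.99 between isotonic and hypertonic, -0.07 between isotonic and rescue and 0.09 between hypertonic and rescue over 13155 rows. Depth did not limit the abundant members; RPL3L rested on 71 to 274 counts a library.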
